A study of Mus musculus with 10 samples.

Results

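Connexins are the membrane proteins of gap junctions, and 6 of their genes were followed here across lens epithelia of wild-type and TGF-β1 transgenic mice. The 6 genes (Gja1, Gja3, Gja4, Gjb2, Gjb6 and Gjc1) were taken by symbol from a count table of 50763 genes, which lists 20 connexin genes in all. Each of the 6 symbols matched 1 row of the table. The libraries were made from lens epithelium at 3 weeks of age and comprised 3 of wild-type (WT) mice, 3 of the OVE853 line and 4 of the OVE918 line. In the 2 transgenic lines, both FVB/N, the lens-specific αA-crystallin promoter drives secretion of an always active human TGF-β1, and the mice develop plaques of anterior subcapsular cataract. The WT mice were of the same background and carry no transgene, and no group received a treatment. A replicate was a pool and not an animal: up to 18 explants of 9 mice for OVE853, up to 14 explants of 7 mice for OVE918 and tissue of up to 9 mice for WT. The whole explanted epithelium was sequenced rather than the isolated plaque, so a difference between groups can lie in the number of cells of a type or in the RNA per cell, which bulk libraries cannot tell apart.

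A gap junction channel forms when a hexamer of connexins in one cell docks with a hexamer in its neighbor, and ions, second messengers and metabolites of low mass then pass between the cytoplasms. The lens has no blood vessels and its inner fiber cells have few organelles, so the tissue depends on this coupling to circulate ions, glucose and antioxidants. Gja1, which encodes Cx43, is the classic connexin of lens epithelial cells, whereas Gja3, which encodes Cx46, is best known from lens fiber cells, and mutations of its human counterpart cause congenital cataract. Gjb2 (Cx26) and Gjb6 (Cx30) are beta connexins of the skin and the cochlea, and mutations of either gene in humans cause deafness. Gja4 (Cx37) couples vascular endothelial cells as well as the oocyte to its granulosa cells, and Gjc1 (Cx45) is a connexin of vascular smooth muscle, the cardiac conduction system and retinal neurons.

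The promoters of the members at the center of the results are shown because those genes went in different directions in the same libraries. Each window of 300 bases was taken from a RefSeq promoter table of build GRCm38.p6, where it spans a RefSeq gene start and lies mostly upstream of it. It was matched without mismatch to a single place in GRCm39, whose coordinates are given. The gene coordinates given further below are from GENCODE, and their starts of Gja1 and Gja3 lie near the 5′ end of the printed windows. Most of the printed Gja1 and Gja3 windows, with the matches marked there, thus lies downstream of the GENCODE start. Of the 6 members 5 had a window in that table, and Gjc1 had none. Capitals mark every match on either strand to 1 of 4 letter patterns, namely the AP-1 pattern TGANTCA, the SMAD pattern CAGAC, the E-box CACCTG of the Snail and ZEB repressors and the TATA pattern TATAAA. No 2 matches overlapped. The Gja1 window lies at chr10:56253146-56253445 on the plus strand.
Gja1: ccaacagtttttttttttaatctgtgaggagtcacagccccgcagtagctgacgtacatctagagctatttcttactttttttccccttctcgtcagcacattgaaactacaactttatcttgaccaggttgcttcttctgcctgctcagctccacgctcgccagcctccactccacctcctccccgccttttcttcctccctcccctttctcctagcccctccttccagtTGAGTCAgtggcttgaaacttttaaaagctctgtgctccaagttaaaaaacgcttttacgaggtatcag
The Gjb2 window lies at chr14:57342110-57342409 on the minus strand.
Gjb2: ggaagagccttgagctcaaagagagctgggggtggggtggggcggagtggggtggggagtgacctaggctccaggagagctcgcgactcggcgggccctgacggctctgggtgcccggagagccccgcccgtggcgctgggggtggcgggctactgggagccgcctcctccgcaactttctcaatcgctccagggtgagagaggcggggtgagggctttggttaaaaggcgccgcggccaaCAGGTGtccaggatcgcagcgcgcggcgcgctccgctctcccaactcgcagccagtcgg
The Gja4 window lies at chr4:127207783-127208082 on the minus strand.
Gja4: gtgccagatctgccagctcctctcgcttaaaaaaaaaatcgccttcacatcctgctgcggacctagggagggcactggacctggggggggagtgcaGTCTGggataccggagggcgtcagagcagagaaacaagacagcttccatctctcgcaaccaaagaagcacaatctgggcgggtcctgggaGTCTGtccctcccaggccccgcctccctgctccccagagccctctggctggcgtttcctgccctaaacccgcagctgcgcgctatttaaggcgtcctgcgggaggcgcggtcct
The upstream of the 2 Gja3 windows lies at chr14:57295438-57295737 on the minus strand.
Gja3: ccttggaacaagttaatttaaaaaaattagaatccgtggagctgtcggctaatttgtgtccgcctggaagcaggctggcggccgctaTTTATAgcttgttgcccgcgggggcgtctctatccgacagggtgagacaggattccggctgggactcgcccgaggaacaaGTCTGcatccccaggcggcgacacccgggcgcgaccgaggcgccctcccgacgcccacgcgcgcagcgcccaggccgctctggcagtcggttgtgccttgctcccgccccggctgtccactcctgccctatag

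The Gja1 window held an AP-1 match at positions 232 to 238, counted from its 5′ end, and no other match. AP-1 matches were present in 7.8% of 32544 distinct promoter windows of the same length. The Gjb2 window held 1 E-box match, at positions 242 to 247, a pattern found in 20.3% of all windows. Both Gja4 matches, at positions 97 to 101 and 187 to 191, were to the SMAD pattern, which 49.5% of all windows contained. The printed Gja3 window held 1 SMAD and 1 TATA match, both on the reverse strand, and the TATA pattern was present in 13.6% of all windows. The Gja3 window not printed held E-box matches at positions 35 to 40, 102 to 107 and 140 to 145. It also held SMAD matches at positions 10 to 14 and 156 to 160. An E-box match lay at positions 265 to 270 of the Gjb6 window as well, so this pattern was not particular to Gjb2. GC content was 47.7% in the Gja1 window, 62.0% in that of Gja4, 63.3% in that of Gja3 and 70.0% in that of Gjb2. A match of letters is a description of sequence, and no binding of a factor was measured in these data.

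The members lie on 4 chromosomes of GRCm39, and 3 of them are neighbors on chromosome 14. Gja3 (ENSMUSG00000048582.9, chr14:57271916-57295702), Gjb2 (ENSMUSG00000046352.9, chr14:57335919-57342240) and Gjb6 (ENSMUSG00000040055.11, chr14:57360757-57371087) all run on the minus strand. The start of Gjb2 lies 46.5 kb from that of Gja3 and 28.8 kb from that of Gjb6. Gja4 (ENSMUSG00000050234.9, chr4:127205214-127207851, minus strand) lies near the beta connexin Gjb5, whose start is 44.2 kb away. Gja1 (ENSMUSG00000050953.12, chr10:56253241-56278609, plus strand) and Gjc1 (ENSMUSG00000034520.16, chr11:102686879-102710532, minus strand) had no connexin gene that near.

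Counts on genes totaled 24073311 to 31908525 per library, and 18058 genes had counts high enough to be tested. Tgfb1, the mouse gene whose row also reflects what reads of the human transgene align to it, was at 47.6 to 59.7 CPM (counts scaled to the size of the library) in WT, 324.7 to 347 in OVE853 and 695.5 to 844 in OVE918. Tgfb1 thus lay above WT in both lines, which the labels call TGFB1-overexpressing without an order between them. It was elevated in OVE918 over OVE853 as well (log2 fold change 1.16 ± 0.12 SE, edgeR FDR = 0.00731). Of the 5 lens epithelium markers examined (Pax6, Foxe3, Cdh1, Cryab and Epha2), all were detected in every library and none was a differentially expressed gene (DEG) in either line by edgeR, although 2 in each line had an FDR of at most 0.05. WT replicate 3 stood apart from the other WT libraries in the summed markers of Müller glia, of retinal neurons and photoreceptors and, through Kdr, of endothelium.

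Against WT, Gja1 fell and Gjb2 rose in both lines, Gja4 rose in OVE918, and Gja3 and Gjc1 were not DEGs in either. A gene was called a DEG at an FDR of at most 0.05, adjusted over all genes tested, and a log2 fold change of 1 or more in either direction. By this rule 2 of the 5 members tested were DEGs in OVE853, where 6.89% of all genes tested were (3.72% reduced), and 3 of 5 were DEGs in OVE918, where 8.79% were (5.34% reduced). Gjb6 had too few counts to be tested. Both shares exceed that background, but the members were chosen with earlier results of these data known. Gjb2 and Gja4, with at most 8 and 3 read pairs in a WT library, also had enough counts for the test only through the transgenic libraries. They could thus be called against WT only as elevated, and the shares are not a result about the family. The lines were compared with the same 3 WT libraries, so the contrasts are not independent of each other.

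**Figure D1:**
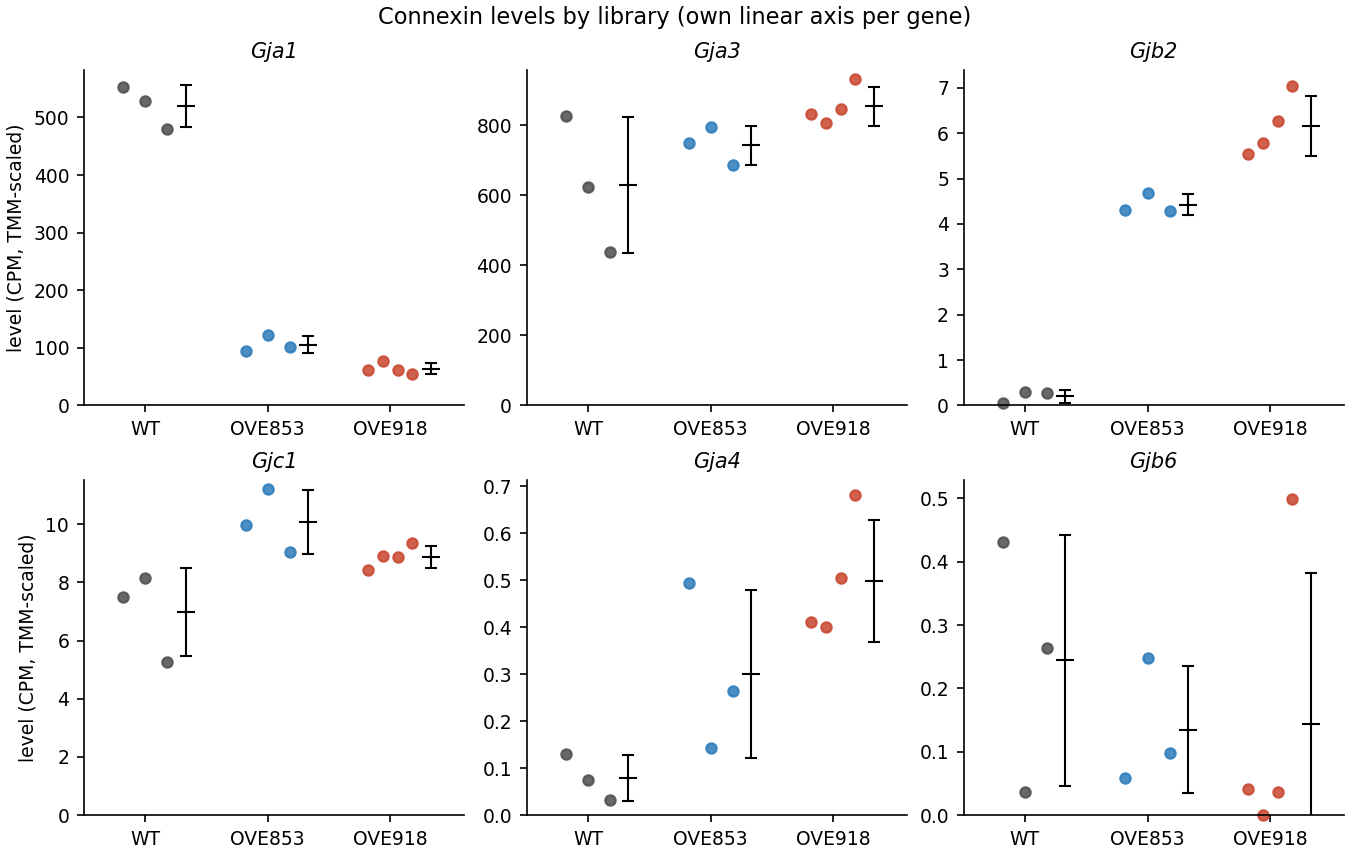
Level of each connexin in CPM (scaled with TMM factors, a linear axis of its own per gene) in the 3 WT, 3 OVE853 and 4 OVE918 libraries. Each point is 1 library, and the bar beside it is the mean ± SD of the group, cut at 0. Gja1 is lower and Gjb2 higher in all 7 transgenic libraries than in all 3 WT libraries, whereas for Gja3 the WT libraries overlap both lines.

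Gja1 was the member that fell. It was at 552, 528 and 481 CPM in the WT libraries, at 94.2, 122 and 101 CPM in OVE853 and at 61.0, 77.9, 61.9 and 54.7 CPM in OVE918. The 3 groups did not overlap, with WT highest and OVE918 lowest, where 20.2% of all genes tested had every OVE853 library and 13.6% every OVE918 library below WT, and the spread within a group was far smaller than the step from WT to either line. Group means were 520 ± 36.4 CPM (SD, n = 3) in WT, 106 ± 14.2 (SD, n = 3) in OVE853 and 63.9 ± 9.88 (SD, n = 4) in OVE918. These amount to a 4.93-fold decrease in OVE853 (log2 fold change -2.30 ± 0.15 SE, edgeR FDR = 1.17e-05) and an 8.15-fold decrease in OVE918 (-3.03 ± 0.14 SE, edgeR FDR = 2.07e-06). Every WT library held at least 12791 read pairs of Gja1 and every transgenic library at least 1205, so counting error is small beside these differences. In each line the reduction was a DEG call in every alternative fit, and leaving out any one library moved its log2 fold change to no less than -2.41 and no more than -2.25 in OVE853 (-3.14 and -2.95 in OVE918).

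Markers of some tissues next to the lens were lower in the transgenic libraries too. The summed level of 5 markers of the non-pigmented ciliary epithelium was 136 to 199 CPM in WT, 27.2 to 41.1 CPM in OVE853 and 10.97 to 19.1 CPM in OVE918, and of the 4 markers tested 3 were reduced DEGs in OVE853 and all 4 in OVE918. Opn5, the fifth, had 4 read pairs in WT in all and 0 in every transgenic library. The summed level of 4 cornea markers, nearly all of it Aldh3a1, was 229, 907 and 1519 CPM in WT and 26.0 to 89.9 CPM in the transgenic libraries. Krt12, a keratin that defines the corneal epithelium, was at 0.633 to 4.61 CPM in WT and at 0 in all 7 transgenic libraries. The remaining cornea markers, Krt5 and Krt14, were too low to be tested. Krt5 had a lower mean in both lines than in WT, whereas Krt14 had a higher mean in OVE918 (0.489 CPM) than in WT (0.122 CPM). Summed over 4 markers, Müller glia gave 448, 452 and 1436 CPM in WT and 124 to 241 CPM in the transgenic libraries, and all of the 4 were detected in each library. The sum of 5 markers of the pigmented epithelium overlapped between groups, at 42.9, 57.4 and 137 CPM in WT, 35.0 to 74.5 CPM in OVE853 and 37.3 to 69.9 CPM in OVE918, and 1 of the 5, Rpe65, was reduced in each line. The part of these tissues in the Gja1 result was not tested.

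Gja1 was also lower in OVE918 than in OVE853, but not enough to be a DEG. All 4 OVE918 libraries lay below all 3 OVE853 libraries, as was the case for 12.8% of all genes tested. The 1.65-fold decrease (log2 fold change -0.72 ± 0.13 SE, 95% interval -1.02 to -0.43) had an edgeR FDR of 0.0515. The FDR lay on either side of 0.05 with the choice of fit, from 0.000139 with DESeq2 to 0.101 with the replicate number in the model, and up to 0.272 when OVE853 replicate 3 was left out, while the log2 fold change stayed between -0.83 and -0.61.

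Gja3, the most abundant member, was not a DEG. Its levels were 828, 625 and 439 CPM in WT, 748, 795 and 686 CPM in OVE853 and 831, 806, 846 and 932.5 CPM in OVE918. The WT libraries were spread widely and overlapped both lines, with the lowest value in replicate 3. Means were 631 ± 194 CPM (SD, n = 3) in WT, 743 ± 54.9 (SD, n = 3) in OVE853 and 854 ± 54.9 (SD, n = 4) in OVE918. Against WT its log2 fold change was 0.24 (95% interval -0.18 to 0.66, edgeR FDR = 0.412) in OVE853 and 0.44 (95% interval 0.04 to 0.83, edgeR FDR = 0.118) in OVE918, and both intervals end below 1. When WT replicate 3 was left out it was 0.001 in OVE853 and 0.23 in OVE918 (edgeR FDR = 0.33), and when WT replicate 1 was left out it was 0.48 (edgeR FDR = 0.0574) and 0.68 (edgeR FDR = 0.0128), still under the minimum fold change. Between the lines it was 0.20 (95% interval -0.19 to 0.59, edgeR FDR = 0.581).

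Lens fiber markers bear on a gene known from fiber cells. The summed level of 8 such markers (Mip, Lim2, Bfsp1, Bfsp2, Hsf4, Dnase2b, Lgsn and Birc7) was 3475 to 7028 CPM in WT, 2880 to 5257 CPM in OVE853 and 4698 to 8838 CPM in OVE918, and the 8 were detected in each library. Of these markers 0 of 8 were DEGs in OVE853 and 1 of 8, Hsf4, rose in OVE918. Their median log2 fold change was -0.128 in OVE853 and 0.723 in OVE918, beside -0.005 and 0.013 over all genes tested. Dnase2b (log2 fold change 3.30, edgeR FDR = 0.114) and Birc7 (3.70, edgeR FDR = 0.0848) lay above WT in every OVE918 library, as did 12% of all genes tested. The other fiber markers overlapped between OVE918 and WT. WT replicate 1 had the highest sum of its group and the highest Gja3 level, and WT replicate 3 had the lowest of both. The part of fiber cells in the Gja3 values was not tested.

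Per unit of length, Gja3 and Gja1 made up nearly all of the RNA of the 6 connexins, and their balance differed between groups. Levels of different genes were compared in fragments per kilobase of exon and per unit of depth (FPKM), computed from library totals. In WT, Gja3 was at 288, 230.2 and 168 FPKM and Gja1 at 113, 114.5 and 108.5 FPKM. Gja3 was therefore 2.54, 2.01 and 1.55 times as high as Gja1 in the 3 WT libraries. The ratio was 13.5, 11.1 and 11.5 in OVE853 and 23.1, 17.6, 23.2 and 28.9 in OVE918, and no library of one group fell within the range of another.

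**Figure D2:**
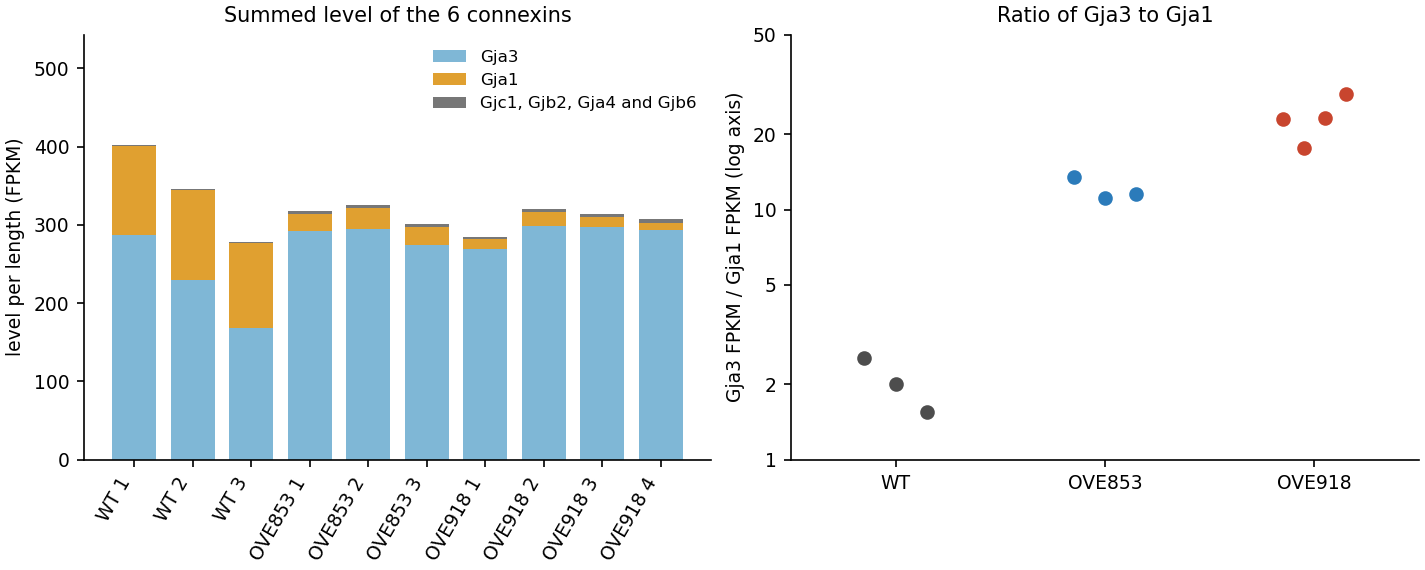
Left, level per length (FPKM, linear axis) of Gja3, of Gja1 and of the other 4 connexins together, stacked for each of the 10 libraries. Right, ratio of Gja3 FPKM to Gja1 FPKM per library (log axis, 1 point a library): 1.55 to 2.54 in WT, 11.1 to 13.5 in OVE853 and 17.6 to 28.9 in OVE918.

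As a share of the summed FPKM, Gja1 held 33.4 ± 5.46% (SD, n = 3) in WT, 7.61 ± 0.707% (SD, n = 3) in OVE853 and 4.19 ± 0.836% (SD, n = 4) in OVE918. Gja3 held 66.2 ± 5.49%, 91.1 ± 0.705% and 94.5 ± 0.795% of it in the same order. The sum itself was 402, 346 and 278 FPKM in WT, 317, 326 and 301.5 FPKM in OVE853 and 285, 320.4, 314 and 307 FPKM in OVE918, with WT spanning all the transgenic values. With 3 libraries against 3 or 4, shares were described and not tested. In WT the order of mean levels was Gja3, Gja1, Gjc1 (1.21 ± 0.234 FPKM), Gjb6 (0.115 ± 0.0899), Gjb2 (0.0816 ± 0.0567) and Gja4 (0.0460 ± 0.0264), and the last 3 did not differ beyond their spread. In OVE853 Gjb2 (1.85 ± 0.0349 FPKM) and Gjc1 (1.84 ± 0.132) were level with each other. In OVE918 Gjb2 (2.27 ± 0.212 FPKM) lay above Gjc1 (1.43 ± 0.116), and Gja4 (0.273 ± 0.0577) above Gjb6 (0.0595 ± 0.0967).

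Gjb2 was the member that rose most, from a level near the detection limit. The WT libraries held 1, 8 and 8 read pairs of it, the OVE853 libraries 148, 132 and 130, and the OVE918 libraries 135, 159, 174 and 155. No transgenic library came near the WT values, and within each line the libraries were close to each other. On the CPM scale the means were 0.201 ± 0.138 (SD, n = 3) in WT, 4.42 ± 0.229 (SD, n = 3) in OVE853 and 6.16 ± 0.661 (SD, n = 4) in OVE918. Gjb2 was elevated 20.9-fold in OVE853 (log2 fold change 4.38 ± 0.39 SE, edgeR FDR = 0.000106) and 29.0-fold in OVE918 (4.86 ± 0.39 SE, edgeR FDR = 2.2e-05). With 17 read pairs in WT in all, counting error alone puts the ratio of summed CPM between 12.9 and 36.2 for OVE853 and between 18.0 and 50.1 for OVE918 (exact 95% interval). Whatever library was left out, Gjb2 remained elevated in both lines. It was untested only under the minimum of 2 FPKM in 5 libraries.

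Each OVE918 library lay above each OVE853 library for Gjb2, as for 11% of all genes tested. Between the lines its log2 fold change was 0.48, with a 95% interval of -0.16 to 1.11 and an edgeR FDR of 0.405. Krt5 and Krt14, keratins of basal epidermal and corneal cells, had too few counts for the test. Krt5 had a mean of 0.914 CPM in WT, 0.135 CPM in OVE853 and 0.157 CPM in OVE918. Krt14 was at 0.0432 to 0.223 CPM in WT, 0.0291 to 0.231 CPM in OVE853 and 0.218 to 1.04 CPM in OVE918, and Krt12 was at 0.633 to 4.61 CPM in WT and at 0 in both lines. The part of surface epithelium in the Gjb2 result was not tested.

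Gjb6, the neighbor of Gjb2 on chromosome 14, stayed at trace level. It had 10, 1 and 8 read pairs in WT, 2, 7 and 3 in OVE853 and 1, 0, 1 and 11 in OVE918. The groups overlapped, and within a group the counts differed as much as between groups. The ratio of summed CPM to WT was 0.547 in OVE853 (exact 95% interval 0.242 to 1.19) and 0.541 in OVE918 (0.246 to 1.16). Without the count filter its log2 fold change was -0.84 in OVE853 (edgeR FDR = 0.694) and -0.82 in OVE918 (edgeR FDR = 0.685). A change of Gjb6 was not detectable at this depth.

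Gja4 rose in OVE918 from 6 read pairs in WT in all. There were 3, 2 and 1 read pairs in WT, 17, 4 and 8 in OVE853 and 10, 11, 14 and 15 in OVE918. Each transgenic library was above each WT library, with OVE853 replicate 2 nearest to them. The means were 0.0790 ± 0.0485 CPM (SD, n = 3) in WT, 0.300 ± 0.179 (SD, n = 3) in OVE853 and 0.499 ± 0.130 (SD, n = 4) in OVE918. In OVE918 the log2 fold change was 2.64 ± 0.61 SE (edgeR FDR = 0.0129), and the ratio of summed CPM was 6.59 (exact 95% interval 2.83 to 18.8). When WT replicate 3 was left out, the log2 fold change in OVE918 was 2.25 with an edgeR FDR of 0.0537, so the call was lost. In OVE853 the ratio was 4.18 (1.71 to 12.3), and the log2 fold change of 1.94 ± 0.65 SE had an edgeR FDR of 0.0681. The lines did not differ by the test (log2 fold change 0.70, 95% interval -0.38 to 1.77, edgeR FDR = 0.47).

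Endothelial markers moved in part with Gja4. Of 7 such markers, Cdh5 alone rose in OVE853, whereas Pecam1, Cdh5, Tie1 and Cldn5 rose in OVE918, all 7 being detected in every library. Pecam1, an adhesion molecule of endothelial cells and platelets, had a mean of 0.775 CPM in WT, 2.10 CPM in OVE853 and 3.14 CPM in OVE918. Kdr, the main VEGF receptor, was at 14.9, 14.7 and 105.9 CPM in WT, the last in replicate 3, and at 5.23 to 13.55 CPM in OVE918, with a log2 fold change of -2.28 (edgeR FDR = 0.0517). Their summed level did not separate the groups, at 55.7 to 138 CPM in WT, 42.3 to 58.2 CPM in OVE853 and 48.7 to 70.7 CPM in OVE918. The part of endothelial cells in the Gja4 result was not tested.

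Gjc1 was higher in all transgenic libraries than in WT without being a DEG. Its levels were 7.51, 8.15 and 5.27 CPM in WT, 9.97, 11.2 and 9.03 CPM in OVE853 and 8.41, 8.90, 8.87 and 9.35 CPM in OVE918. Groups whose libraries all lie above WT were common, at 21% of all genes tested in OVE853 and 12% in OVE918. Its log2 fold change was 0.53 ± 0.17 SE in OVE853 (95% interval 0.15 to 0.91, edgeR FDR = 0.0629) and 0.35 ± 0.16 SE in OVE918 (95% interval -0.01 to 0.71, edgeR FDR = 0.162). Summed over 7 markers, pericytes and vascular smooth muscle gave 109 to 149 CPM in WT, 148 to 183 CPM in OVE853 and 115 to 151 CPM in OVE918, and 1 of the 7, Cspg4, rose in each line. The part of those cells in the Gjc1 values was not tested.

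Between the lines 0 of 5 members tested were DEGs by edgeR, as by DESeq2 and by limma voom, against 0.244% of all genes tested by edgeR (0.0498% elevated and 0.194% reduced). At an unadjusted p under 0.05 the count was 1, which was Gja1, where 17.7% of all genes tested had such a p. Gja1, Gjb2 and Gja3 did not overlap between the lines, whereas 23.8% of all genes tested did not.

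Across the 10 libraries the other 4 members tested correlated negatively with Gja1, although within WT the libraries had the same order for Gja3 as for Gja1. Pearson's r of log2 CPM with Gja1 was -0.969 for Gjb2, -0.902 for Gja4, -0.643 for Gja3 and -0.631 for Gjc1, as a description over 10 libraries that share the group structure. Outside the connexin family, the genes most like Gja1 among 18046 compared were Ppfibp2 (r = 0.992), Car8 (r = 0.990) and Lrtm2 (r = 0.990). Car8 encodes a carbonic anhydrase-related protein that lacks the enzyme activity. The nearest to Gjb2 were Pxdc1 (r = 0.994), Snx31 (r = 0.990) and Tmem114 (r = 0.987), the first of which rose from a mean of 1.54 CPM in WT to 12.1 CPM in OVE853 and 14.7 CPM in OVE918. Gja3 was closest to Tspan14 (r = 0.995), Pabpc1 (r = 0.989) and Memo1 (r = 0.988). Gja4 was closest to AU021092 (r = 0.980), Cd34 (r = 0.972) and Mak16 (r = 0.970), where Cd34 is a surface protein of endothelial and hematopoietic progenitor cells. Gjc1 was closest to Slc10a7 (r = 0.961), Slc16a3 (r = 0.960), a lactate transporter, and Loxl2 (r = 0.959), a lysyl oxidase that crosslinks collagen.

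Among 10 other connexin genes, 4 had counts enough for the test, and those that passed it all rose. In OVE853 2 of 4 were elevated DEGs (Gja5 and Gjb5), against 3.17% of all genes tested that were elevated. In OVE918 3 of 4 were (Gja5, Gjb5 and Gje1), against 3.45%. Gjb5, with at most 1 read pair in a WT library, had enough counts for the test only through the transgenic libraries. It could thus be called against WT only as elevated, and these shares are not a result about the family. Between the lines 0 of 4 were DEGs by edgeR, DESeq2 or limma voom, and 1, Gje1, had an unadjusted p under 0.05 by edgeR. All of them were of low abundance, at a mean of 7.32 CPM or less in every group.

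Gjb5, a beta connexin of the epidermis and the chromosome 4 neighbor of Gja4, had 0, 1 and 1 read pairs in WT, 23, 6 and 14 in OVE853 and 10, 15, 22 and 30 in OVE918. The libraries of both lines lay above WT, with OVE853 replicate 2 lowest. Its ratio of summed CPM to WT was 18.6 in OVE853 (exact 95% interval 4.85 to 159) and 30.5 in OVE918 (8.15 to 256), with an edgeR FDR of 0.0139 and 0.00237. In OVE853 the call was lost without replicate 1 (FDR 0.056), whereas in OVE918 it held whichever library was left out.

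**Figure D3:**
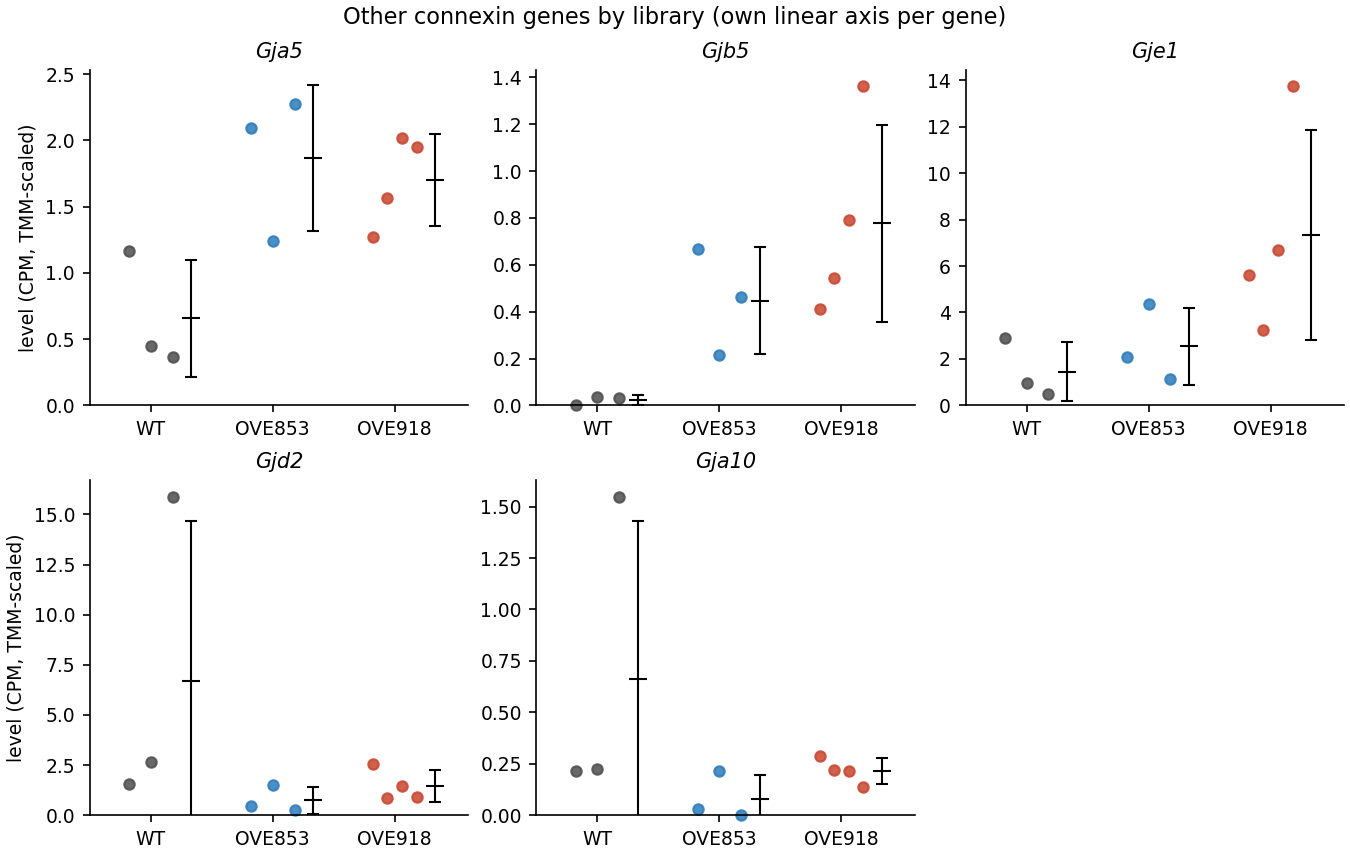
Level in CPM (linear axis of its own per gene) of 5 connexin genes outside the rule in the 3 WT, 3 OVE853 and 4 OVE918 libraries. Points are libraries and bars are mean ± SD, cut at 0. Gjb5 lies above WT in all 7 transgenic libraries, whereas the high WT points of Gjd2 and Gja10 are both WT replicate 3.

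Gja5, which encodes Cx40 of arterial endothelium and atrial muscle, had 27, 12 and 11 read pairs in WT, 72, 35 and 69 in OVE853 and 31, 43, 56 and 43 in OVE918. On the CPM scale all transgenic libraries lay above WT, the nearest being OVE853 replicate 2 at 1.24 against WT replicate 1 at 1.17. Gja5 differed by a log2 fold change of 1.53 ± 0.44 SE in OVE853 (edgeR FDR = 0.046) and 1.39 ± 0.43 SE in OVE918 (edgeR FDR = 0.0478). Both calls lie close to the threshold and held in only 1 of 10 fits that left out a library, the one without WT replicate 1, with an FDR of up to 0.154 and 0.133 in the others. Of the 7 endothelial markers given beside Gja4, 1 was elevated and 6 were not called in OVE853, against 4 and 3 in OVE918. Their bearing on the Gja5 result was not tested.

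Gje1, a connexin gene known from the zebrafish and mouse lens, had 67, 26 and 15 read pairs in WT, 72, 123 and 35 in OVE853 and 137, 89, 185 and 303 in OVE918. OVE918 lay above WT and was highest in replicate 4, which also had the highest sum of lens fiber markers. Gje1 differed by a log2 fold change of 2.35 ± 0.71 SE in OVE918 (edgeR FDR = 0.0483) and 0.82 ± 0.73 SE in OVE853 (edgeR FDR = 0.46). The OVE918 call was lost in 7 of 10 fits that left out a library, with an FDR of up to 0.128 there, and held without WT replicate 1, OVE853 replicate 2 or OVE918 replicate 2. The test between the lines gave a log2 fold change of 1.53 (95% interval 0.02 to 3.03, edgeR FDR = 0.276), so the lines are not shown to differ.

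Gjd2, the main connexin of electrical synapses between neurons, had 36, 71 and 482 read pairs in WT, 16, 42 and 8 in OVE853 and 62, 23, 41 and 20 in OVE918. Of the 589 WT read pairs, 482 came from replicate 3. Its log2 fold change was -3.19 ± 0.95 SE in OVE853 (edgeR FDR = 0.0526) and -2.22 ± 0.82 SE in OVE918 (edgeR FDR = 0.0927), and without WT replicate 3 it was -1.55 in OVE853 and -0.55 in OVE918. It was a reduced DEG in both lines without WT replicate 1 (-3.65 and -2.68) or by DESeq2 (-3.19 and -2.21), and in OVE853 also without WT replicate 2 (-3.56), by voom and without robust estimation. Gja10, a connexin of retinal horizontal cells, had 5, 6 and 47 read pairs in WT and at most 7 in a transgenic library. The summed level of 6 markers of retinal neurons and photoreceptors was 43.1, 47.4 and 419.5 CPM in WT and 12.6 to 61.8 CPM in the transgenic libraries, so WT replicate 3 was the highest in these markers as in both connexins. The part of retinal RNA in those counts was not tested beyond leaving out that library. The 5 others of the 10 (Gja6, Gjb1, Gjc3, Gjd3 and Gjd4) had at most 5 read pairs in any library.

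Pannexins form channels of similar fold but do not, as a rule, join cells. Panx1, which releases ATP, was at 2.25, 2.64 and 3.39 CPM in WT, 3.40, 4.16 and 3.99 CPM in OVE853 and 5.17, 6.07, 4.61 and 6.58 CPM in OVE918. All transgenic libraries were above WT. It was elevated in OVE918 (log2 fold change 1.02 ± 0.21 SE, edgeR FDR = 0.00734) and not a DEG in OVE853 (0.48 ± 0.22 SE, edgeR FDR = 0.162). The OVE918 value lies at the minimum fold change: without WT replicate 1, OVE918 replicate 2 or OVE918 replicate 4 it was 0.89, 0.98 and 0.95, under that minimum. Panx2, a neuronal pannexin, was at 8.98, 7.82 and 23.0 CPM in WT, 6.60, 8.60 and 6.46 CPM in OVE853 and 6.24, 4.76, 6.20 and 6.45 CPM in OVE918. It was reduced in OVE918 (log2 fold change -1.17 ± 0.33 SE, edgeR FDR = 0.0354) and not a DEG in OVE853 (-0.88 ± 0.36 SE, edgeR FDR = 0.118). Without WT replicate 3 the OVE918 value was -0.51 with an FDR of 0.0951, and the call was lost in 7 of the 10 fits that left out a library, being kept without WT replicate 1, WT replicate 2 or OVE853 replicate 2. Panx3 was not tested, with 1 read pair in WT in all, 15 in OVE918 replicate 1, 3 in OVE918 replicate 2 and 0 in every other transgenic library.

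Of 15 connexin partners and regulators, which include cadherins, catenins, caveolin-1 and kinases that phosphorylate Cx43, 0 were DEGs in either line by edgeR, where 6.89% of all genes tested were in OVE853 and 8.79% in OVE918. At an unadjusted p under 0.05 the counts were 7 in OVE853 and 6 in OVE918, where 32.8% and 32.5% of all genes tested had such a p. At an FDR of at most 0.05 with no minimum fold change they were 4 in OVE853 and 3 in OVE918, where 13.6% and 16.9% of all genes tested reached that FDR, and 0 between the lines, where 0.377% did. Their median log2 fold change was 0.002 in OVE853 and -0.02 in OVE918, beside -0.005 and 0.013 over all genes tested. By DESeq2, Cav1 was reduced in both lines, by edgeR without robust estimation it was reduced in OVE918, and limma voom called none.

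The partners with the largest differences were Cav1, Ccn3, Src, Cdh1, Cdh2 and Prkca. Src, a kinase that phosphorylates Cx43, had a log2 fold change of -0.66 in OVE853 (edgeR FDR = 0.00414) and -0.77 in OVE918 (edgeR FDR = 0.000558). E-cadherin (Cdh1), also a lens epithelium marker here, was at -0.76 (edgeR FDR = 0.0288) and -0.59 (edgeR FDR = 0.0438). Both were below the FDR threshold in both lines with differences short of the minimum fold change. N-cadherin (Cdh2) was at 0.70 in OVE853 (edgeR FDR = 0.0466) and 0.51 in OVE918 (edgeR FDR = 0.0906). Prkca, a protein kinase C, was at -0.66 (edgeR FDR = 0.184) and -0.32 (edgeR FDR = 0.51). Its WT levels were 32.4, 25.3 and 69.2 CPM, and without WT replicate 3 the differences were -0.14 in OVE853 and 0.23 in OVE918. Mapk3, named for having passed the same FDR, was at -0.55 (edgeR FDR = 0.00882) and -0.38 (edgeR FDR = 0.0234). Cav1 was at 3.11, 4.88 and 27.9 CPM in WT and at 1.20 to 3.61 CPM in the transgenic libraries. Of its 1052 WT read pairs, 849 came from replicate 3. It had a log2 fold change of -2.04 in OVE853 (edgeR FDR = 0.0926) and -2.18 in OVE918 (edgeR FDR = 0.0554). Without WT replicate 3 these were -0.49 (edgeR FDR = 0.498) and -0.60 (edgeR FDR = 0.37), whereas Cav1 was a DEG in both lines without WT replicate 1 and in OVE918 without WT replicate 2. Ccn3, a matricellular protein that binds the Cx43 tail, was at -1.52 (edgeR FDR = 0.146) and -0.38 (edgeR FDR = 0.707), and was a DEG in OVE853 without WT replicate 1.

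**Figure D4:**
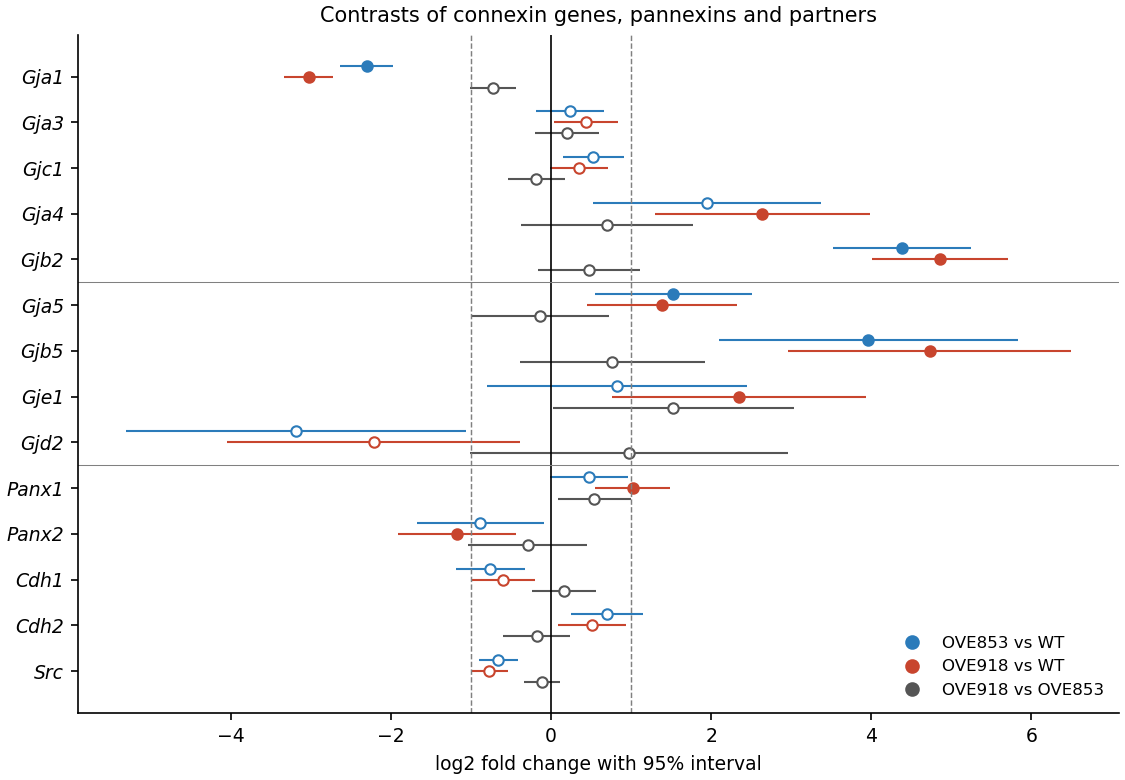
Log2 fold change with its 95% interval for the 5 members tested (top), 4 other connexin genes (middle) and 5 pannexins and partners (bottom), in OVE853 against WT, OVE918 against WT and OVE918 against OVE853. Filled points are DEGs, and dashed lines mark the minimum fold change. Gja1 lies at -2.30 and -3.03 and Gjb2 at 4.38 and 4.86 against WT, while no point of the contrast between the lines is filled.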

How the data were processed

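Paired 150 bp reads of 10 libraries were processed by the authors, who, per the labels and the study's methods, trimmed with Cutadapt 5.2, aligned to mm39 (GRCm39) with STAR 2.7.11b and counted read pairs on RefSeq exons with featureCounts 2.0.8 in reverse-stranded mode. They deposited raw counts per gene, without normalization, for 50763 genes. 0 columns lacked a sample.

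Counts were analyzed with R 4.3.3, edgeR 4.0.16, limma 3.58.1 and DESeq2 1.42.0. Genes entered by filterByExpr (minimum count 10, minimum total 15). TMM factors, a group model of all 10 libraries, robust quasi-likelihood fits and Benjamini-Hochberg adjustment over all genes tested were used, and the steps were tested on simulated data. CPM is TMM-scaled and log2 CPM has a prior count of 2. FPKM uses total counts and the merged exons of each gene's primary transcripts in GENCODE vM39, joined by symbol. Exact intervals (95%) of count ratios cover counting error only.

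Total counts of 24073311 to 31908525 and 3 or 4 pools per group limit precision. The members and gene lists were chosen with earlier results of these data known. The genes named are the 6 members, other connexins, pannexins and partners that were called, up to 6 further partners by the size of their change, the 3 genes closest to each member tested, markers and Tgfb1. Uncalled connexins, Mapk3, single markers and Pxdc1's levels were added after their values were seen. Results for 4 connexin genes and 1 partner are not reported here. Alternatives were a replicate block, only the groups compared, upper-quartile scaling, DESeq2, a minimum of 2 FPKM in 5 libraries, no filter, no robust estimation, voom with sample weights, no minimum fold change, other gene lengths and leaving out each library.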

Additional observations from a re-analysis of the deposited data

Results flagged for a closer look

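Among the 4 OVE918 libraries, 1 value stood far from the others: Panx2 was at 4.76 CPM in replicate 2 and at 6.20 to 6.45 CPM in the other 3, a gap of 0.855 of the whole range (past Dixon's 95% critical value). The groups examined in this way were those of 26 genes in the 4 OVE918 libraries, and chance puts about 1 in 20 such groups past that value.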

How the results depend on the processing

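The calls of Gja1 and Gjb2 in both lines held in every alternative that tested them. Of the members, 2 in OVE853 were called whichever library was left out, and 2 to 3 in OVE918, the lower number without WT replicate 3. Under the minimum of 2 FPKM in 5 libraries 1 member (Gja1) was called in each line, because 2 were tested. The other connexins called numbered 1 in each line with the replicate block, 0 in OVE853 and 1 in OVE918 with only the groups compared, 0 and 1 under the 2 FPKM minimum, 3 and 4 with DESeq2, 3 in each line with voom or without robust estimation, and without a library 0 to 3 in OVE853 and 1 to 4 in OVE918. Of the 17 partners and pannexins, the 0 calls in OVE853 became 1 with DESeq2 and 4 with no minimum fold change, and 0 to 2 without a library. The 2 calls in OVE918 became 0 with the replicate block or voom, 1 with only the groups compared or under the 2 FPKM minimum, 5 with no minimum fold change, 3 with DESeq2 or without robust estimation (Cav1 added), and 0 to 3 without a library. Between the lines, 0 calls stayed 0 throughout. With exons of all transcripts as gene length, the share of Gja1 was 26.0% in WT, 5.44% in OVE853 and 2.96% in OVE918, and that of Gja3 73.5%, 93.0% and 95.4%. Without a library, the log2 fold change of Gja5 between the lines ran from -0.358 to 0.046 and reversed without OVE853 replicate 3. That of Prkca in OVE918 reversed to 0.25 with voom and ran from -0.562 to 0.231 without a library, reversing without WT replicate 3. That of Cav1 between the lines ran from -0.327 to 0.107 and reversed without OVE853 replicate 2 or OVE918 replicate 2. The cause of these shifts was not tested beyond the number of genes tested.

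Same-numbered libraries did not deviate together (correlations -0.344 to 0.265, and 1 of 9 libraries closest to its own number). The replicate block gave 866 DEGs in OVE853, 1155 in OVE918 and 6 between the lines, against 1244, 1587 and 44 without it, and changed no call of a member. Leaving out a library gave 592 to 1982 DEGs in OVE853, 1291 to 2114 in OVE918 and 0 to 172 between the lines. DESeq2 gave 1772, 1943 and 212, voom 1592, 1605 and 311, the 2 FPKM minimum 490, 620 and 54, and only the groups compared 825, 1276 and 168. Gja4, Gjb6 and Gjb5 had at most 30 read pairs in any library, which limits their precision.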
